A study of Drosophila melanogaster with 6 samples.

Results

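Cell cycle and DNA replication genes of Drosophila wing discs with activated or dominant negative Egfr are described here. A list of 50 such genes was taken, and a gene counted as measured when a probe set was annotated to its symbol alone. That gave 36 of the 10844 genes measured, through 37 probe sets. Of the 26 listed genes of G1-S control and replication 21 were measured, and of the 24 of G2 and mitosis 15. One of them is listed under its older name CDC45L and appears here as Cdc45. No probe set named these 14 genes alone, and they were not analysed here: dap, Orc6, geminin, Mcm7, RnrS, CycA, Cdk1, stg, wee, Myt1, polo, aurA, Top2 and BubR1. The mitotic phosphatase gene stg and the kinase gene Cdk1, both central to mitotic entry, are therefore missing from what follows.

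Cells divide in a fixed order of phases, and the genes followed here build and steer that order. In G1, cyclin-dependent kinases bound to cyclins D and E relieve the block that the retinoblastoma protein Rbf places on E2f transcription factors, which switch on genes of DNA replication. Origins are marked by the origin recognition complex and loaded with the Mcm helicase before S phase. Entry into mitosis then depends on the mitotic cyclins and their kinase. Exit depends on the anaphase-promoting complex, a ubiquitin ligase that has the securin pim and the cyclins destroyed. Wing imaginal discs are larval epithelia that grow by such divisions, and the receptor Egfr, acting through Ras and the kinase ERK, is known to support their growth and survival.

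The data are 6 Affymetrix arrays of Drosophila melanogaster wing discs of the third larval instar, raised at 25 °C. In 3 samples (ACT1 to ACT3) the 71B-Gal4 driver expressed an activated Egfr, EGFR-TOP, and in 3 (DN1 to DN3) the same driver expressed a dominant negative Egfr, EGFR-DN. All samples thus carry the driver and a receptor transgene. Discs of the driver line alone were not analysed here, and neither group can serve as an untreated level. Whole discs were measured while a transgene acts only in the cells where its driver is on, and fewer cells of a type cannot be told apart from less RNA per cell. The labels do not say that replicates came from separate animals, so the spread behind the p-values may be technical.

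Values are log2 probe set signals, and array medians lay between 8.01 and 8.06. A rough background level comes from 4 control probe sets for yeast transcripts, with array means of 5.54 to 5.96. All 7 measured wing disc markers (nub, vg, ap, salm, rn, bs and Dll) stayed above that level, at 7.7 or more in every array. Some samples within a group differed from each other as much as the groups did, in the cell cycle genes and in markers of other organs. The summed linear signal of the 7 salivary gland markers ranged from 3049 to 10650 in ACT discs and from 3946 to 13770 in DN discs. That of the 4 fat body markers ranged from 2208 to 6590 in ACT discs and from 4346 to 8870 in DN discs.

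No cell cycle or replication gene passed the test between activated and dominant negative Egfr. With limma over all genes and Benjamini-Hochberg adjustment, 0 of the 36 genes were called at an adjusted p under 0.05, where the share over all 10844 genes was 0%. The smallest adjusted p among the 36 was 1 after rounding. At an unadjusted p under 0.05 there were also 0 of 36, against 2.38% of all genes, and the smallest unadjusted p was 0.0612, for pim. The difference, ACT minus DN throughout, was positive for 16 of the 36 genes, against 53.2% of all genes, and negative for 20. Their median was -0.015 on the log2 scale, where the median over all genes was 0.011. In 35 of the 36 genes the values within a group spanned a wider range than the difference between the group means, which was so for 96.9% of all genes.

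The size of difference that the 6 arrays leave possible can be stated for each gene. For 33 of the 36 genes the 95% interval of the difference lay inside 2-fold in both directions, which was so for 97.2% of all genes. The 3 genes whose interval reached past 2-fold were E2f1, CycE and pim, which also varied much between replicates. The intervals are those of single genes and are not widened for the number of genes. The count of 0 at an unadjusted p under 0.05 depended on the arrays. It became 6 without ACT3 (CycE, E2f1, Mcm5, Mcm10, pim and fzy, with 7.9% of all genes) and 2 without DN1 (E2f1 and pim, with 4.05%), and in neither case did a member pass after adjustment.

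**Figure D1:**
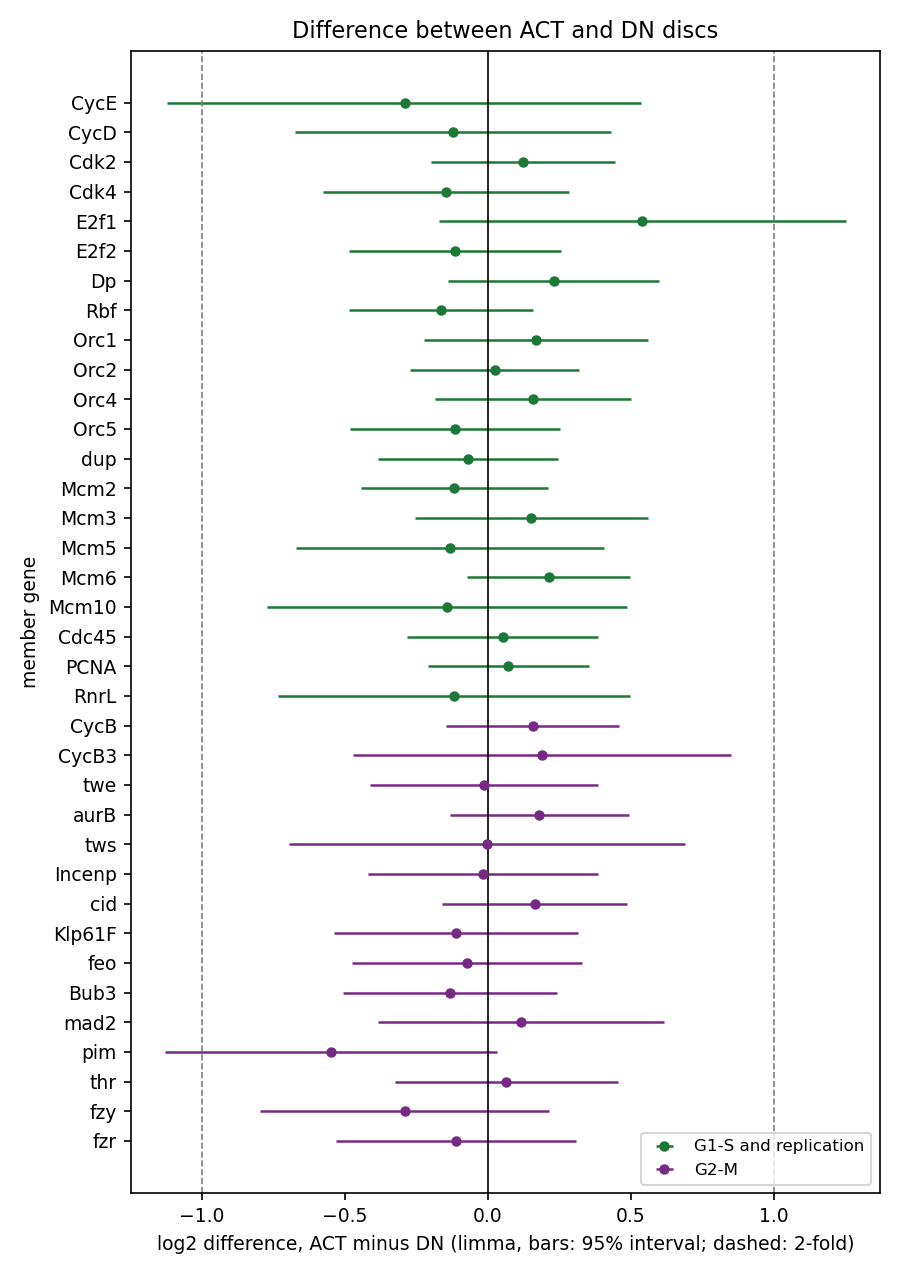
Log2 difference of the 36 measured genes, ACT minus DN, with the 95% interval of the limma fit (3 arrays per group). Dashed lines mark 2-fold, every interval crosses 0, and those of E2f1, CycE and pim reach past 2-fold.

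Among the regulators of the G1-S step, E2f1 had the largest positive difference. It encodes the activating E2f factor of the fly. It read 11.33, 10.71 and 10.25 in ACT1, ACT2 and ACT3, against 10.69, 10.37 and 9.61 in DN1, DN2 and DN3. The groups overlapped, since ACT3 lay below DN1 and DN2. The log2 difference was 0.54 (SE 0.32), or 1.45-fold, with an adjusted p of 1. Leaving out 1 array moved it between 0.23, without DN3, and 0.80, without ACT3.

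The partner subunit of E2f1 is Dp, which lets E2f factors bind DNA. Its values were 9.83, 9.56 and 10.03 in ACT1 to ACT3, against 9.40, 9.60 and 9.73 in DN1 to DN3. ACT2 fell within the DN range, and the log2 difference was 0.23 (SE 0.16). It was 0.12 without ACT3 and 0.35 without ACT2. The repressing factor E2f2 differed by -0.11 (SE 0.16) and the pocket protein gene Rbf, which restrains E2f, by -0.16 (SE 0.14). Neither difference passed.

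CycE, whose protein with Cdk2 drives entry into S phase, had the widest spread of values within groups. Its values were 7.24, 6.63 and 8.13 in ACT1 to ACT3, against 7.01, 7.93 and 7.94 in DN1 to DN3. Both groups held high and low arrays: ACT3, DN2 and DN3 were high, and ACT1, ACT2 and DN1 low. The means were 7.33 ± 0.75 in ACT discs and 7.63 ± 0.53 in DN discs (SD, n = 3 each). The log2 difference was -0.29 (SE 0.37). The sign rested on ACT2, without which it was 0.06, and without ACT3 it was -0.69.

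The kinase partner of CycE, Cdk2, was much steadier, with values of 10.09 to 10.22 in ACT discs and 9.90 to 10.26 in DN discs and a log2 difference of 0.12 (SE 0.14). CycD and its kinase Cdk4, which act earlier in G1 and on growth, differed by -0.12 (SE 0.25) and -0.15 (SE 0.19). CycD read 8.29, 8.23 and 9.01 in ACT1 to ACT3, against 8.38, 9.05 and 8.47 in DN1 to DN3. Here the high arrays were ACT3 and DN2, while DN3 was low.

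In the licensing and firing of origins, 11 of 14 listed genes were measured, and all 11 had an interval inside 2-fold. Of these, 6 had a positive and 5 a negative difference, from -0.14 for Mcm10 to 0.21 for Mcm6, with a median of 0.02. The helicase subunit gene Mcm6 was 1 of the 2 genes of the set whose groups did not overlap. It read 9.36, 9.35 and 9.32 in ACT1 to ACT3, against 9.22, 9.14 and 9.04 in DN1 to DN3. The ACT arrays lay within 0.04 of each other and all above the DN arrays. The log2 difference was 0.21 (SE 0.13), or 1.16-fold, and the adjusted p was 1. Groups without overlap and with higher ACT values made up 3.24% of all genes, and the set held 2 such genes of 36. Groups without overlap and with lower ACT values made up 3.12% of all genes, and the set held 0.

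The other helicase subunits did not share the separation of Mcm6. The differences were 0.15 (SE 0.18) for Mcm3, -0.12 (SE 0.15) for Mcm2 and -0.13 (SE 0.24) for Mcm5, all with overlapping groups. Mcm5 read 8.54, 8.11 and 9.18 in ACT1 to ACT3, against 8.71, 8.82 and 8.71 in DN1 to DN3, so its spread came mostly from the ACT discs. Mcm10, a replication factor that joins the helicase at firing, read 6.03, 5.69 and 6.91 in ACT1 to ACT3, against 6.21, 6.23 and 6.62 in DN1 to DN3. It was the 1 gene of the set that fell below the highest control mean, 5.96, in an array, namely ACT2. The control mean of ACT2 itself was lower, at 5.59. Its log2 difference was -0.14 (SE 0.28).

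The recognition complex genes Orc1, Orc2, Orc4 and Orc5 differed by 0.17, 0.02, 0.16 and -0.12, with SEs of 0.13 to 0.17. The difference was -0.07 (SE 0.14) for dup, the fly's Cdt1, which loads the helicase, and 0.05 (SE 0.15) for Cdc45, a helicase cofactor. The groups overlapped in each of these genes.

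For DNA synthesis, PCNA and RnrL were measured. PCNA is the sliding clamp of the replicative polymerases and a classical E2f target in the fly. It was among the steadiest genes of the set, at 12.09, 12.00 and 12.13 in ACT1 to ACT3, against 11.97, 12.00 and 12.04 in DN1 to DN3. The log2 difference was 0.07 (SE 0.12), with a 95% interval of -0.21 to 0.35, and 0.04 without ACT3. RnrL, the large subunit of ribonucleotide reductase, which makes deoxyribonucleotides, read 9.78, 9.53 and 10.55 in ACT1 to ACT3, against 9.65, 10.25 and 10.32 in DN1 to DN3. As for CycE, ACT3, DN2 and DN3 were the high arrays. Its log2 difference was -0.12 (SE 0.27), and it was -0.42 without ACT3, 0.09 without ACT2 and 0.01 without DN3.

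**Figure D2:**
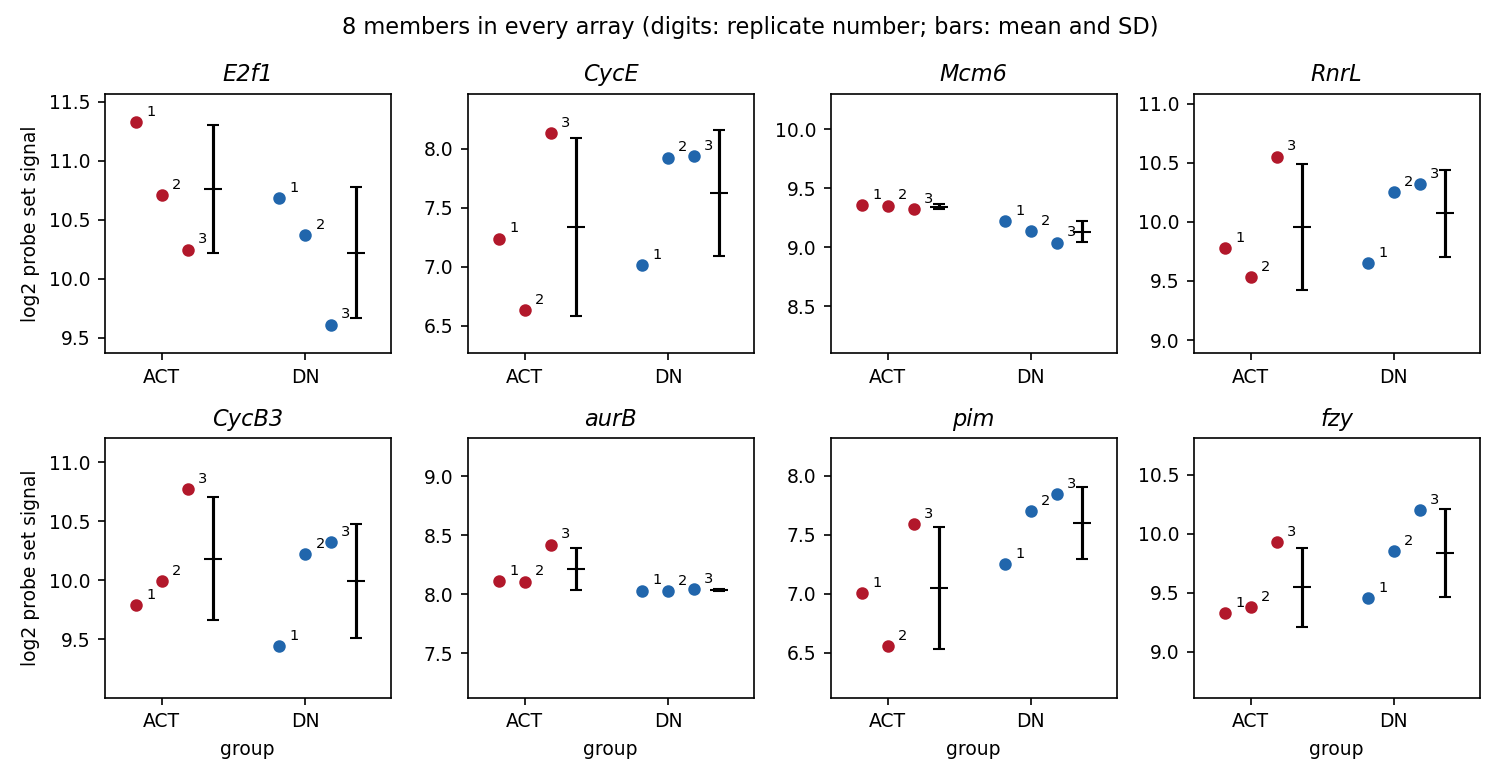
Log2 probe set signal of 8 genes in each array of ACT and DN discs, with replicate numbers beside the points, black bars for mean and SD (n = 3 each) and axes of equal length. Groups are separate for Mcm6 and aurB only. In all but Mcm6 the values within a group span a wider range than the difference between the group means. That was so for 96.9% of all genes.

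Among the cyclins and kinases of mitosis, CycB had values of 11.41, 11.39 and 11.58 in ACT1 to ACT3, against 11.17, 11.40 and 11.34 in DN1 to DN3. CycB encodes a main mitotic cyclin, and its log2 difference was 0.16 (SE 0.13), with ACT2 just below DN2. Without DN1 it was 0.09. CycB3, a further mitotic cyclin gene, read 9.79, 9.99 and 10.77 in ACT1 to ACT3, against 9.44, 10.22 and 10.32 in DN1 to DN3. Its difference of 0.19 (SE 0.29) turned negative without ACT3 (-0.11) and without DN1 (-0.09), and was 0.39 without ACT1.

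The kinase gene aurB, the enzyme of the chromosomal passenger complex, was the other gene without overlap. It read 8.11, 8.11 and 8.42 in ACT1 to ACT3, against 8.03, 8.03 and 8.05 in DN1 to DN3. ACT1 and ACT2 lay just above the DN arrays and ACT3 well above them. The log2 difference was 0.18 (SE 0.14), or 1.13-fold, and 0.08 without ACT3. Incenp, the scaffold of the same complex, differed by -0.02 (SE 0.18) with overlapping groups.

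The gene tws, a regulatory subunit of the phosphatase PP2A, was the 1 gene of the set with 2 probe sets. The brighter one read 9.64, 9.56 and 10.59 in ACT1 to ACT3, against 9.47, 9.91 and 10.43 in DN1 to DN3, a log2 difference of -0.004 (SE 0.31). The other read 6.99, 6.52 and 8.01 in ACT1 to ACT3, against 7.35, 7.56 and 7.61 in DN1 to DN3, a log2 difference of -0.34 (SE 0.32 in the fit over all probe sets). In both, ACT3 was the highest array. The second Cdc25 phosphatase gene of the fly, twe, which is known for its part in meiosis, differed by -0.01 (SE 0.18). Among genes of chromosome and spindle the differences were 0.16 (SE 0.14) for cid, the centromeric histone, -0.11 (SE 0.19) for the spindle kinesin gene Klp61F and -0.07 (SE 0.18) for feo, a microtubule bundler of the central spindle.

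Genes of the spindle checkpoint and of anaphase held the largest negative difference, that of the securin gene pim. It read 7.002, 6.56 and 7.59 in ACT1 to ACT3, against 7.25, 7.70 and 7.84 in DN1 to DN3. The overlap came from ACT3, which lay above DN1. The means were 7.05 ± 0.52 in ACT discs and 7.60 ± 0.31 in DN discs (SD, n = 3 each). The log2 difference was -0.55 (SE 0.26), with a 95% interval of -1.13 to 0.03 and an adjusted p of 1. It was -0.82 without ACT3 and -0.30 without ACT2.

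The separase gene thr, whose protein pim holds inactive, differed by 0.06 (SE 0.17). The gene fzy, the fly's Cdc20, directs the anaphase-promoting complex to pim and the cyclins. It read 9.33, 9.38 and 9.93 in ACT1 to ACT3, against 9.46, 9.86 and 10.20 in DN1 to DN3. ACT3 lay above DN1 and DN2, and the log2 difference was -0.29 (SE 0.22), with -0.48 when ACT3 was left out and -0.11 when DN3 was.

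The alternative activator fzr, the fly's Cdh1, acts late in mitosis and in G1 and is needed for endocycles. It read 6.02, 6.13 and 6.61 in ACT1 to ACT3, against 6.32, 6.19 and 6.58 in DN1 to DN3, not far above background. Its difference was -0.11 (SE 0.19), with -0.29 without ACT3 and 0.01 without ACT1. The checkpoint genes Bub3 and mad2, which hold back fzy until chromosomes are attached, differed by -0.13 (SE 0.17) and 0.12 (SE 0.22).

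G1-S and replication genes were also set beside G2-M genes, as a description with no test. The median log2 difference was -0.07 over the 21 G1-S and replication genes and -0.01 over the 15 G2-M genes. The mean log2 differences stood in the other order, at 0.009 and -0.029, so the order of the phases depended on the measure. To compare arrays, each gene was centred on its mean over the 6 arrays and the genes of each set were averaged. The mean of the G1-S and replication genes minus that of the G2-M genes was 0.15, -0.03 and -0.06 in ACT1 to ACT3, against 0.13, 0.03 and -0.22 in DN1 to DN3. The groups averaged 0.02 ± 0.11 in ACT discs and -0.02 ± 0.18 in DN discs (SD, n = 3 each). The groups overlapped, and the balance between the 2 sets differed more between the replicates of a group than between the groups.

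These genes differed more between replicate arrays than between the transgenes. The mean centred value of the 36 genes was -0.05, -0.19 and 0.23 in ACT1 to ACT3, against -0.15, 0.04 and 0.12 in DN1 to DN3. All genes together stayed within 0.02 of 0 in every array. With array medians already nearly equal (8.01 to 8.06), that mean could hardly move, so it is a reference level and not a result. ACT3 was the highest ACT array for 28 of the 36 genes, against 32.7% of all genes. DN1 was the lowest DN array for 25 of 36, against 31.1% of all genes, and both held for 23 of 36, against 20.5%. ACT2 was the lowest ACT array for 25 of 36, against 32.5% of all genes. The group means of the set were the same to within 0.01, at -0.003 ± 0.21 in ACT discs and 0.003 ± 0.14 in DN discs (SD, n = 3 each).

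The pattern over arrays was also taken by phase. The G2-M genes averaged -0.14, -0.17 and 0.27 in ACT1 to ACT3, against -0.22, 0.02 and 0.25 in DN1 to DN3, so that ACT3 and DN3 were high. The G1-S and replication genes averaged 0.01, -0.20 and 0.21 in ACT1 to ACT3, against -0.09, 0.05 and 0.03 in DN1 to DN3, so that ACT3 alone stood out on the high side. DN3 was the highest DN array for 13 of 15 G2-M genes and for 9 of 21 G1-S and replication genes, against 33.2% of all genes. A test of this difference was not made.

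**Figure D3:**
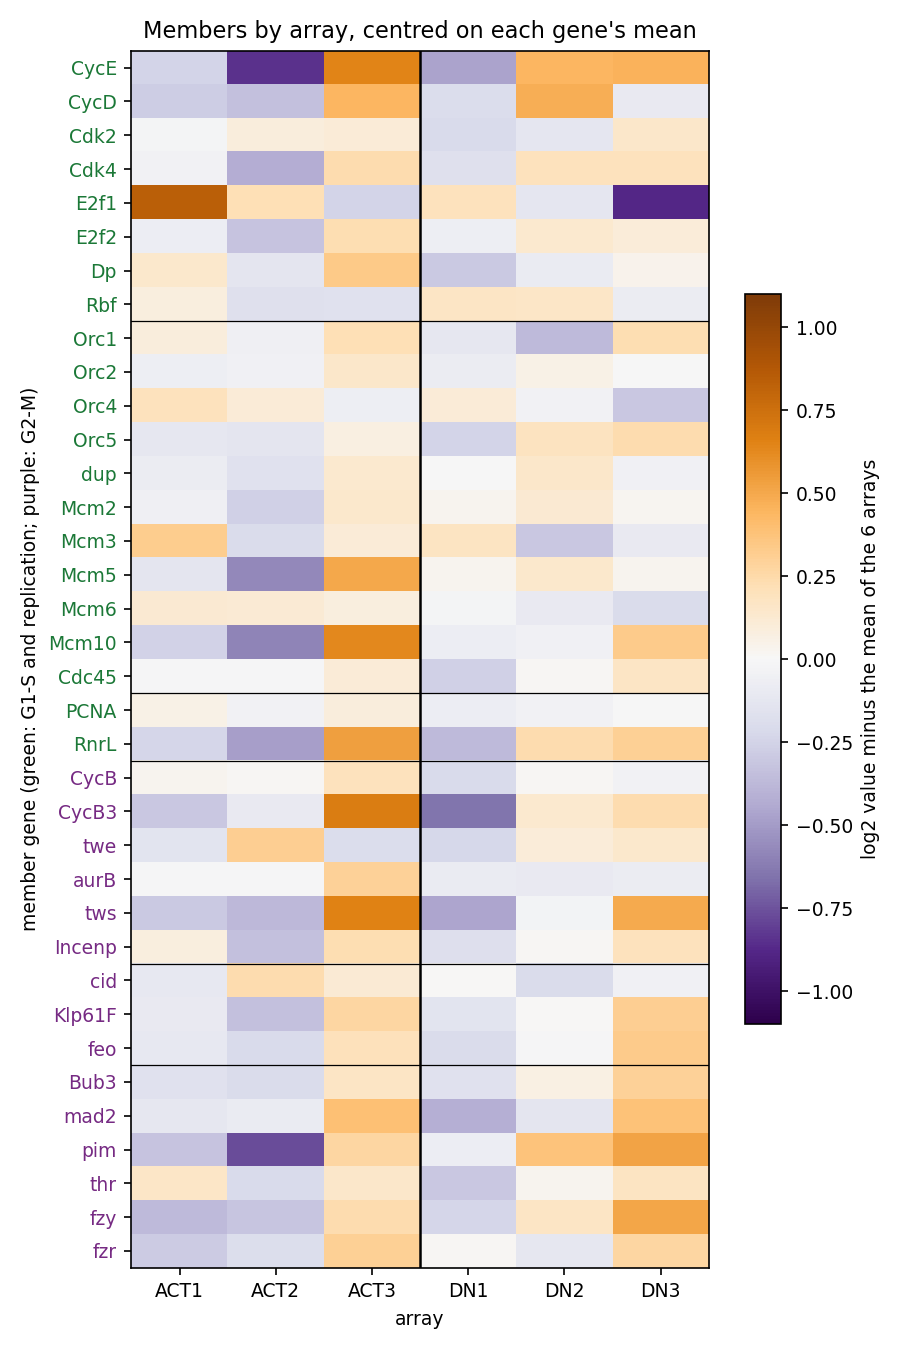
Log2 values of the 36 genes in the 6 arrays, each minus the gene's mean over the arrays, ordered by role (lines separate the role groups). Most genes are high in ACT3 and low in ACT2 and DN1; E2f1 runs the other way, highest in ACT1 and lowest in DN3.

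A few genes ran against the rest. E2f1, Orc4 and Mcm6 were lowest in ACT3 among the ACT arrays and in DN3 among the DN arrays, a pattern found in 19.2% of all genes. Highest in both ACT1 and DN1 were 5 genes, a pattern found in 21.8% of all genes: E2f1, Orc4 and Mcm6 again, with Rbf and Mcm3. Each of these belongs to G1-S control or licensing. The arrays that were high for CycE and RnrL were thus low for E2f1.

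Markers of salivary gland, fat body, trachea and myoblasts leaned in 1 direction between the groups. Those of salivary gland, fat body and trachea also moved with the arrays. All 7 salivary gland, 4 fat body, 5 tracheal and 5 myoblast markers had lower means in ACT discs, with median log2 differences of -0.74, -0.575, -0.41 and -0.33, and 0 passed after adjustment. At an unadjusted p under 0.05 these lists held 1, 2, 2 and 1 markers, against 2.38% of all genes. The myoblast list includes vg, which is also counted among the wing disc markers. The centred mean of the salivary gland markers was -0.79, -0.43 and 0.25 in ACT1 to ACT3, against -0.52, 0.74 and 0.73 in DN1 to DN3. The salivary gland and the fat body are endocycling tissues, which replicate DNA without dividing. For the fat body markers it was -0.92, -0.20 and 0.15 in ACT1 to ACT3, against -0.05, 0.18 and 0.84 in DN1 to DN3. Both lists were thus highest in ACT3 among the ACT arrays and lowest in DN1 among the DN arrays, as the mean of the cell cycle genes was. The same arrays were highest and lowest for wing disc markers, which averaged 0.02, -0.04 and 0.15 in ACT1 to ACT3, against -0.24, 0.18 and -0.08 in DN1 to DN3. The lowest ACT array, however, was ACT1 for the salivary gland and fat body lists. It was ACT2 for the cell cycle mean and for the wing disc markers. The part of other tissue in the cell cycle values was not tested.

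The tracheal list averaged -0.37, -0.44 and 0.11 in ACT1 to ACT3, against -0.01, 0.27 and 0.44 in DN1 to DN3. Of the remaining markers, the hemocyte gene srp stayed at or below the highest control mean, 5.96, in every array. Signs were mixed in the hemocyte list, with 3 positive and 4 negative differences. The neuron and glia list held 1 positive and 4 negative. The hemocyte list ranged in summed linear signal from 1932 to 2181 in ACT discs and from 1614 to 2017 in DN discs, the myoblast list from 1628 to 1659 in ACT discs and from 1827 to 2347 in DN discs, and the neuron and glia list from 886 to 965 in ACT discs and from 988 to 1126 in DN discs.

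**Figure D4:**
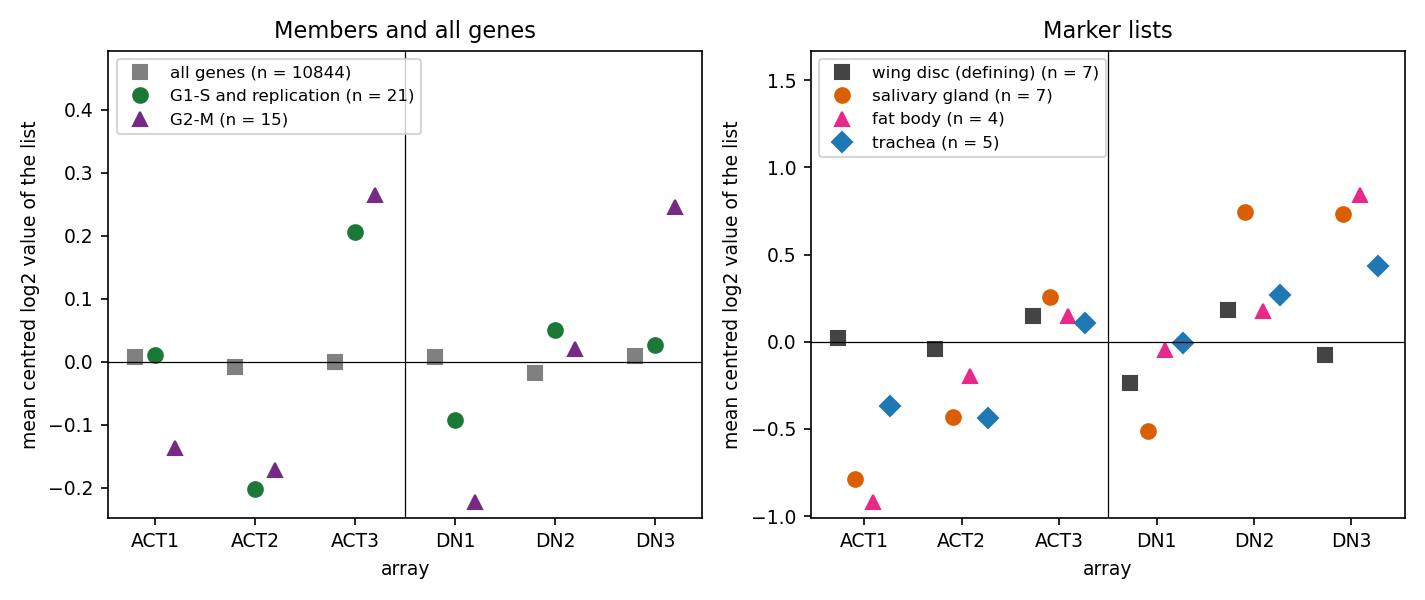
Mean centred log2 value per array, ACT arrays left and DN arrays right: G1-S and replication genes, G2-M genes and all genes (first panel) and marker lists (second panel, with a wider axis). G2-M genes are high in ACT3 (0.27) and DN3 (0.25). The mean over all genes stays within 0.02 of 0, with array medians nearly equal.

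Cell cycle genes outside the set gave the same count of calls. Of 109 further genes in 4 lists, 0 passed after adjustment, and 2 had an unadjusted p under 0.05, against 2.38% of all genes. The median log2 difference was 0.03, with 64 positive and 45 negative, against 53.2% positive over all genes. Groups did not overlap for 6 with higher ACT values, against 3.24% of all genes, and for 2 with lower ACT values, against 3.12%. The array pattern of the 36 genes was seen here too, though unevenly between the lists. ACT3 was the highest ACT array for 68 of the 109 genes, against 32.7% of all genes. DN1 was the lowest DN array for 56, against 31.1%, and both held for 44, against 20.5%. By list, both held for 29 of 57 genes of mitosis and cytokinesis and for 7 of 26 of the replication machinery. They held for 6 of 19 further genes of G1-S control and 2 of 7 of histones and chromatin. Over 26 genes of the replication machinery (polymerases, clamp loader, RPA, GINS and others) the median was 0.02. Prim2, a primase subunit gene, differed by 0.28 (SE 0.13; limma unadjusted p = 0.0483, adjusted p = 1). It read 9.48, 9.48 and 9.40 in ACT1 to ACT3, against 9.17, 9.24 and 9.10 in DN1 to DN3, without overlap. The next smallest p-values were those of chif, the fly's Dbf4, at 0.22 (SE 0.14), and of mus101 at 0.16 (SE 0.14).

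Over 57 genes of mitosis and cytokinesis the median was 0.03, with 32 positive and 25 negative. Klp10A, a kinesin that shortens microtubules, had the smallest unadjusted p, with 10.17, 10.01 and 9.92 in ACT1 to ACT3, against 9.70, 9.79 and 9.28 in DN1 to DN3. The groups did not overlap, the log2 difference was 0.44 (SE 0.17), and the adjusted p was 1. The kinetochore genes Spc25, at -0.26 (SE 0.13) and without overlap, and Mis12, at -0.38 (SE 0.23) with overlap, followed. Spc25 read 6.035, 5.99 and 6.16 in ACT1 to ACT3, against 6.41, 6.25 and 6.31 in DN1 to DN3, not far above background.

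Over 19 further genes of G1-S control the median was -0.01, and the smallest p-values were those of mnb (0.24, SE 0.13, without overlap), slmb (-0.39, SE 0.22) and Cks30A (-0.52, SE 0.39). Cks30A was listed here with G1-S control, although it encodes a small subunit of mitotic kinases. It read 8.05, 7.90 and 9.39 in ACT1 to ACT3, against 8.34, 9.19 and 9.37 in DN1 to DN3, high in the same arrays as CycE. Among 7 genes of histones and chromatin 6 had a positive difference, against 53.2% of all genes. Their median was 0.24, where the median over all genes was 0.011. His1, His2B, His3 and His4 were not measured, and the listed name His2A was matched to His2Av. Groups did not overlap for 2 of the 7, both with higher ACT values, against 3.24% of all genes. The histone chaperone gene asf1 differed by 0.29 (SE 0.13) without overlap, NSD by 0.27 (SE 0.15), and the histone variant gene His2Av by 0.24 (SE 0.14) without overlap. None passed after adjustment.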

How the data were processed

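RNA of 6 wing disc samples was hybridised to 1 Affymetrix array each. The authors deposited 1 log2 value per probe set and array, made with GCRMA per the submitters' processing notes; GCRMA's settings and version are not given in the sources used. The range of the values, 4.72 to 15.08, gave the scale. GCRMA estimates background from probe sequence and gives each probe set 1 value, so differences close to background depend on that estimate. Precision is limited by the number of arrays.

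Of 14010 probe sets, 44 controls were left out. Of the other 13966, 12443 had 1 gene symbol, 327 several and 1196 none; 12394 were found by Entrez identifier in a RefSeq table (Release 6 plus ISO1 MT). The probe set of highest mean represented each of 10844 genes. ACT was tested against DN with limma 3.58.1 under R 4.3.3 (lmFit, eBayes, two-sided, no covariate), with Benjamini-Hochberg adjustment over all genes; a permutation test of 3 against 3 cannot go below 0.1. The fit was first tested on simulated data. Figures used matplotlib 3.10.9.

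Genes with values in every array were fixed by rule: no overlap, an unadjusted p under 0.05, the 8 largest differences, the 4 largest SDs and a core set; other lists gave their 3 smallest p. Values in every array are also printed for CycD, Mcm5 and Mcm10, chosen after their values were seen. From the other lists they are printed for Prim2, Klp10A, Spc25 and Cks30A only, a choice the rule did not fix. Members and lists were chosen with earlier results of these data known. Alternatives were a filter, 2 normalizations, trend and robust prior, array weights, a replicate block, other probe set rules, and leaving out arrays.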

Additional observations from a re-analysis of the deposited data

How the results depend on the processing

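The number of cell cycle genes called stayed at 0 when genes with a mean below 6 were left out, with median centring, array weights, quantile normalization, a trend with robust prior, averaged probe sets, a replicate block and the fit over all probe sets, and with each array left out. Over all genes the count was 0 in the fit reported; it was 1 with array weights, averaged probe sets, quantile normalization or a trend with robust prior, and 0 to 3 with 1 array left out. Without both arrays numbered 3, chosen after seeing the data, it was 2. Leaving out 1 array moved the median difference of the 36 genes from -0.13 (without ACT3) to 0.09 (without ACT2), that of the G1-S and replication genes from -0.124 to 0.092, and that of the G2-M genes from -0.14 to 0.08. The mean difference between the 2 phases moved from -0.06 to 0.11. The replicate numbers were not taken as pairs. Deviations from the group means correlated over genes at 0.61 (ACT1, DN1), -0.12 (ACT2, DN2) and 0.59 (ACT3, DN3). ACT2 and DN2 each correlated better with another number. The deviations of a gene sum to 0 within each group, so these correlations depend on each other and cannot settle the pairing. With the replicate block, 3 cell cycle genes had an unadjusted p under 0.05 (E2f1, pim and fzy; smallest adjusted p = 0.451), against 5.67% of all genes; array weights gave the same 3, against 8.72%. The difference of CycB3 became -0.13 with array weights, and that of tws, near 0, became 0.011 with quantile normalization. With 1 array left out, tws ran from -0.34 to 0.24, CycE from -0.69 to 0.059, RnrL from -0.418 to 0.092, CycB3 from -0.11 to 0.39 and fzr from -0.293 to 0.006. The causes were not tested.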
